A study of Rattus norvegicus with 180 samples.

Results

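miR-126 and miR-126*, the pair of mature strands cut from a single hairpin, were taken by their names in the array design, rno-miR-126 and rno-miR-126*. They are 2 of the 717 miRNAs of a custom 1-color rat array, and both were followed over 55 organs. All rats were male Sprague-Dawley rats of 10 weeks. Rats 4, 5 and 6 were perfused with saline to wash out blood before tissue collection and gave all 55 organs (165 arrays), and rats 1, 2 and 3 were not perfused and gave liver, kidney, lung, heart atrium and heart interventricular septum (15 arrays). The labels name no other treatment, and each array held RNA of dissected tissue with its mixture of cells, not of sorted cells. From duodenum to rectum the tissue was epithelium scraped from the mucosa, and the aorta and vein were abdominal.

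miR-126 is a miRNA of endothelial cells, the cells that line blood vessels. Its hairpin lies in an intron of Egfl7, a gene for a protein that endothelial cells secrete, so the hairpin and the mRNA can come from one primary transcript. The strand named miR-126 (the 3p strand) is known for repressing Spred1 and Pik3r2, which dampen signalling by vascular growth factors, and Vcam1, an adhesion molecule for leukocytes. The strand with the star (the 5p strand) is also loaded into the silencing complex in endothelial cells. Because of this origin miR-126 is often read as a marker of endothelium in a tissue. Haematopoietic stem and progenitor cells and megakaryocytes are also known to hold it.

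The mature sequences show that the strands differ in their seed, the bases 2 to 8 that pair with targets, which is written in capitals. They are given 5′ to 3′ as in RefSeq on build GRCr8, where both lie on the plus strand of chromosome 3, miR-126 at chr3:29813219-29813240 and miR-126* at chr3:29813182-29813202. The hairpin (chr3:29813174-29813246) lies within the span of Egfl7 (chr3:29802481-29814966).
miR-126: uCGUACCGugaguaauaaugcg
miR-126*: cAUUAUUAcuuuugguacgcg
Each seed was found in 1 of the 693 mature rat miRNAs of that table, so neither strand shared its seed with another entry. RefSeq also lists a miRNA on the opposite strand, rno-miR-126b (miR-3567 on the array), at chr3:29813177-29813198, which overlaps the 5p strand by 17 bases. The probes of miR-3567 were detected on 0 of 180 arrays.

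In the array design miR-126 had 2 probe sequences of 10 spots each and miR-126* had 1 of 20 spots. Detection on an array required the scanner software to flag more than 50% of a miRNA's spots as well above background. miR-126 was detected on 179 of 180 arrays, the exception being a pancreas array. miR-126* was detected on 152 of 180 arrays, and always together with miR-126. It was detected on all 3 arrays of 36 perfused organs, on 1 or 2 arrays of 17 organs and on none of the arrays of pancreas and glandular stomach. Signals are given here in array units after each array was scaled to a common level of 2118 (the 75th percentile of the 37 miRNAs that every array detected), and lower values were raised to a floor of 10.8, the median over arrays of the dimmest detected signal. The brighter of the miR-126 probe sequences and the dimmer followed each other over the 55 organs with a Pearson correlation of 0.997, the dimmer at a median of 35.7% of the brighter, and with this scaling both peaked in lung and were lowest in rectum. Signals of miR-126 and miR-126* come from different probes, so a level of one was not set against a level of the other.

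The arrays lay on 23 slides scanned on 3 days. An array detected 86 to 244 miRNAs (median 161.5), and no spot was saturated. Before scaling, the 75th percentile ran from 68 to 6343, and the 3 pancreas arrays lay between 68 and 121. Pancreas values were therefore multiplied far more than those of other organs, and a scaled pancreas signal sits close to a scaled background. In each of these bulk samples a lower signal can reflect fewer cells of a type or less of the miRNA per cell, which cannot be told apart.

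Levels of miR-126 spanned a 78.8-fold range of organ means with this scaling. Under 4 other scalings, including the authors' table, lung was 75.4- to 147-fold above rectum. In 3 of them pancreas was lowest. There miR-126 was detected on 2 of 3 arrays and sits close to background, so no fold over pancreas is given. Lung was highest at 4330 ± 628.9 (SD, n = 3), with 4295, 3719 and 4975 in rats 4, 5 and 6. Brown adipose tissue came second at 3416 ± 198, with 3626, 3233 and 3389. No lung array was as low as any array of brown adipose tissue, and no array of brown adipose tissue was as low as any of the heart. The place of brown adipose tissue depended on the scaling: it was also second after quantile normalization, but ranked 4 when arrays were scaled over all miRNAs and in the authors' table and 6 without scaling, and in each of these 3 heart interventricular septum was second.

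The heart and the other muscular or fatty organs with high miR-126 followed. Heart atrium held 2519, 2837 and 2687, heart interventricular septum 2456, 2214 and 2685, and the organ labelled interseptum 2375, 1927 and 2355. White adipose tissue held 2113, 1837 and 1937. The ranges of neighbours in this stretch overlapped, so the order within it does not exceed the spread between rats. Vein (mean 1716), liver (1704), thyroid (1674) and mesenteric lymph node (1629) then lay close together.

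Means above 1000 were found in 17 organs, which also included gastrocnemial muscle (1577), bone marrow (1423), soleus muscle (1320), femoris muscle (1240), kidney (1170), spleen (1093) and tongue (1044). The median organ, eyeball, had a mean of 585. Between kidney and the ileum, means fell gradually, and in this stretch every pair of neighbours overlapped. With the main scaling, 51 of the 54 pairs of neighbouring organs overlapped, and the 3 that did not were lung over brown adipose tissue, brown adipose tissue over heart atrium, and glandular stomach over rectum.

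**Figure D1:**
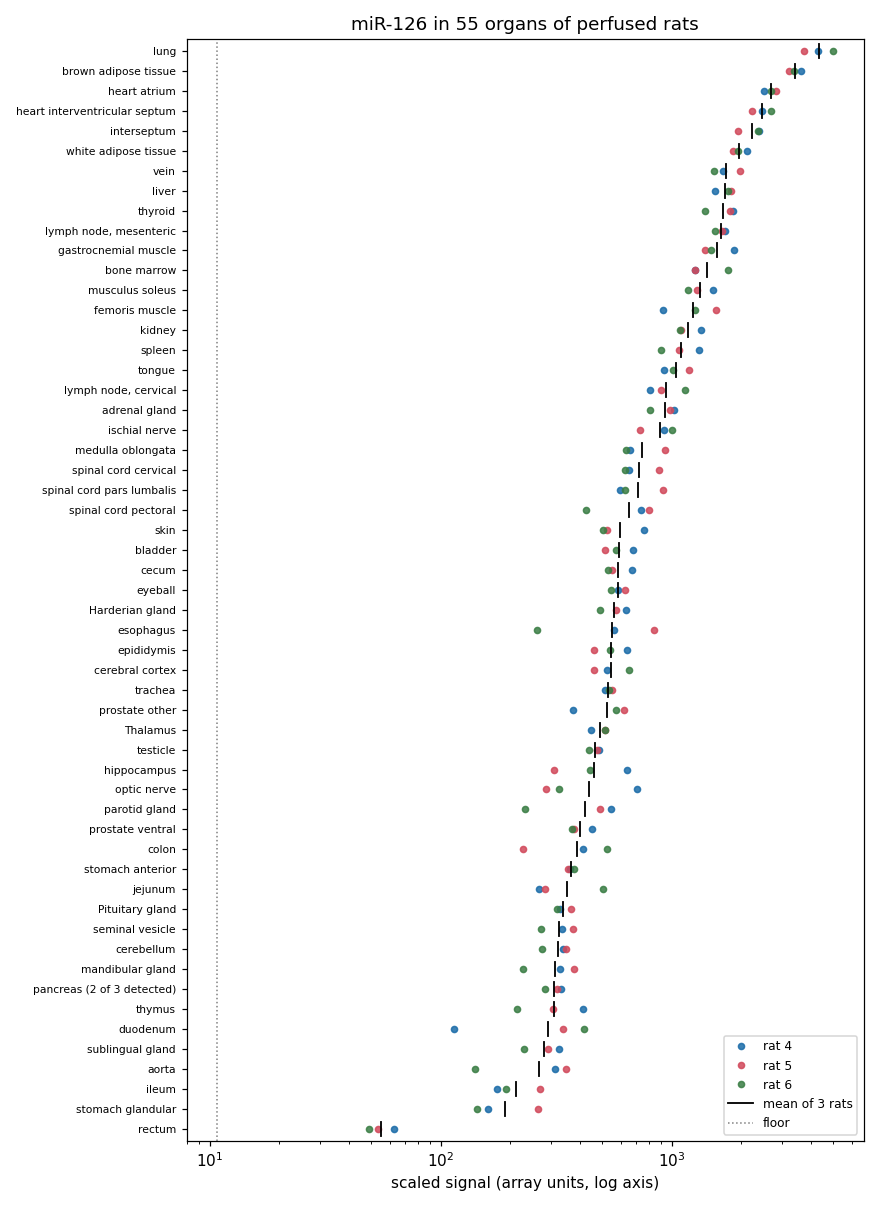
Scaled signal of miR-126 (array units, log axis) in 55 organs of perfused rats, with a point per rat, a bar at the mean and the floor as a dotted line. With this scaling lung and brown adipose tissue stand apart at the top and rectum at the bottom (48.8 to 62.5), while most neighbouring organs overlap; of these 3 places only that of lung was the same under the 4 other scalings.

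At the low end, rectum stood alone with 62.5, 53.5 and 48.8. It was also last after quantile normalization, while pancreas was last in the other 3 scalings, with rectum at rank 53 or 54 of 55. Glandular stomach (mean 189), ileum (212) and aorta (266) came above it. The aorta was low although it is a vessel: its arrays held 311, 347 and 140. Values in the duodenum were spread widely, at 114, 339 and 419, and the esophagus of rat 6 (261) lay far below those of rats 4 and 5 (565 and 834). Across organs the median coefficient of variation over the 3 rats was 15.4%.

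In the limma F-test over organs, 94.3% of the variance of miR-126 lay between organs (adjusted p = 7.64e-50). This was called for 99.7% of the 345 miRNAs tested, and 244 of them had a larger share between organs than miR-126, whose residual SD of 0.355 log2 units was above the median of 0.237. A difference over organs was thus shared by nearly all miRNAs. The rats are separate animals, but the fit pools the spread between the 3 arrays of an organ over all organs. It has no term for rat or slide, so these p-values treat the arrays of a rat as independent.

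miR-126* followed the same order at the top with the main scaling. Lung was highest at 239 ± 92.35 (SD, n = 3), with 209, 166 and 343 in rats 4, 5 and 6. Brown adipose tissue (186, 143 and 213), heart atrium (127, 128 and 196), heart interventricular septum (119, 103 and 180) and interseptum (169, 85.7 and 146) came next. None of the 54 pairs of neighbouring organs was free of overlap (0 of 54), so for this strand no organ stood apart from the next. Under the 4 other scalings lung stayed first, heart atrium and septum came next, and brown adipose tissue ranked 4 to 7.

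Replicate spread was wider for miR-126*. Its median coefficient of variation over rats was 32.1%, its residual SD was 0.526 log2 units, and 85% of its variance lay between organs (limma F-test, adjusted p = 2.1e-27). Of the 345 miRNAs tested, 333 had a larger share between organs. The mean signal lay under 100 in 47 of the 55 organs. In rectum all 3 arrays were at the floor, although 1 of them passed the detection rule. For glandular stomach and pancreas the signal is only a bound: lung was at least 16.7-fold above glandular stomach and at least 1.19-fold above pancreas, where the dimmest detectable signal is itself high after scaling.

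**Figure D2:**
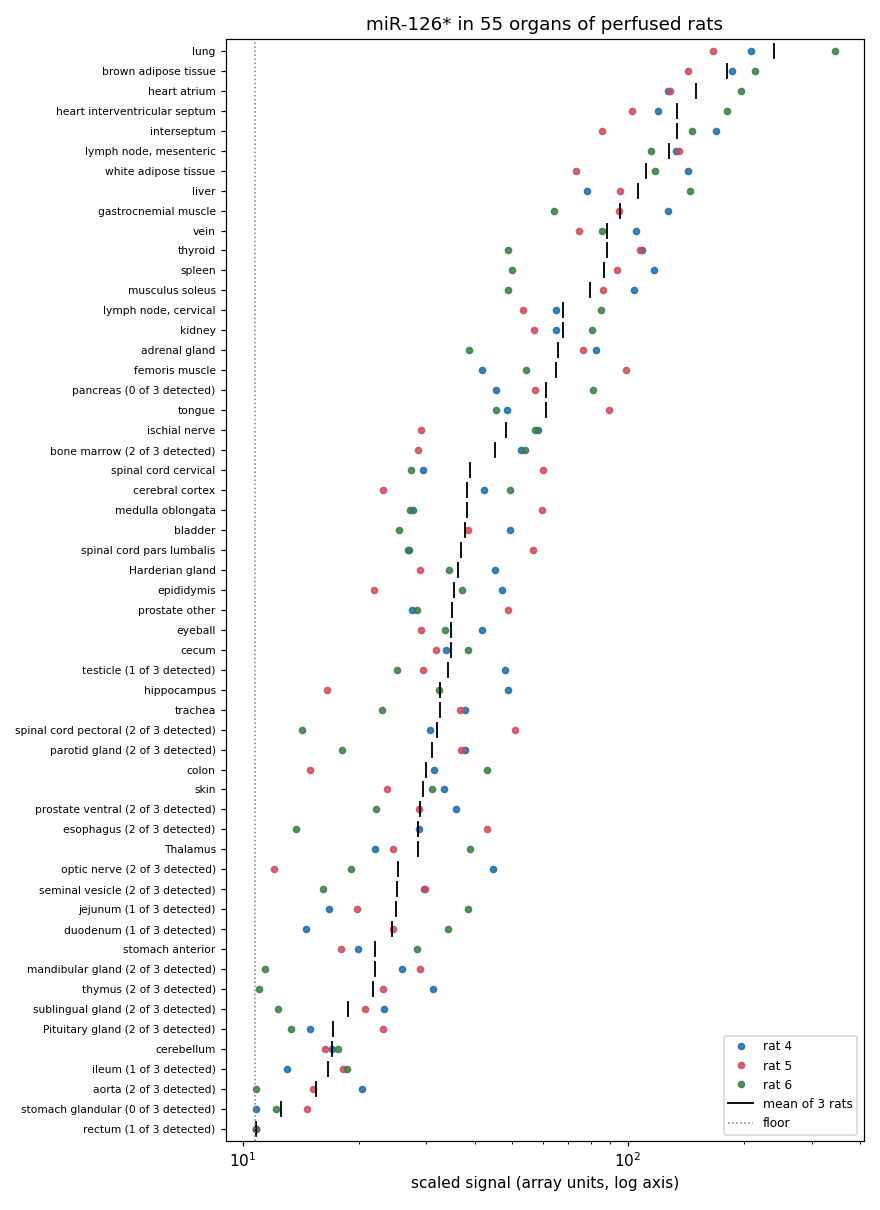
Scaled signal of miR-126* (array units, log axis) in the same 55 organs, drawn as for miR-126. Organs with fewer than 3 arrays detected are marked, and the 3 rectum arrays lie on the floor.

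Lung, whose gas exchange surface is a dense bed of capillaries, was set against the mean of the other 54 organs. This contrast and those below were chosen with earlier results of these data known. miR-126 was 6.81-fold higher in lung, a log2 difference of 2.77 ± 0.21 (SE; limma, adjusted p = 9.18e-24). miR-126* was 5.79-fold higher, a difference of 2.53 ± 0.3 (limma, adjusted p = 1.78e-12). No array of any other perfused organ reached the lowest lung array of miR-126 (3719 against at most 3626). In this contrast 75.4% of all miRNAs tested were called in either direction, 63 higher and 197 lower. Lung came first for both strands under all 4 other scalings compared, including the authors' table, with log2 differences of 3.20 to 4.52 for miR-126 and 2.80 to 4.20 for miR-126*. Against other organs on the same slide the difference was smaller, higher on 3 of 3 slides by 1.27 to 1.8 (mean 1.51) for miR-126 and by 1.1 to 1.73 (mean 1.43) for miR-126*. A slide holds only a few organs, which can themselves be high or low in miR-126. Here and below, such a within-slide value therefore has another reference than the contrast, and their sizes cannot be compared directly. In the normexp alternative, with another background correction, median spot signals and an offset of 50, miR-126* fell to 0.89, still called (limma, adjusted p = 0.00276). Markers of other cells rose there as well. All 4 leukocyte miRNAs were higher in lung (summed signal 918 to 1283) and so were the 3 miRNAs of ciliated cells (285 to 574), while 2 of 3 red blood cell miRNAs were higher (17.5 to 1135). Of the smooth muscle miRNAs 1 of 3 was higher (sums of 2351 to 3295), namely miR-143, its abundant member, by 0.76 ± 0.24 log2 units (limma, adjusted p = 0.0033). The part of these cells in the miR-126 difference was not tested.

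The heart, as atrium and interventricular septum together, held 4.12-fold more miR-126 than the mean of the other 53 organs. That log2 difference was 2.04 ± 0.15 (limma, adjusted p = 2.77e-25). For miR-126* it was 1.83 ± 0.22, or 3.56-fold (limma, adjusted p = 3.99e-13). Of all miRNAs tested, 86.4% were called in this contrast, 46 higher and 252 lower. The size depended on the scaling: the log2 difference of miR-126 was 3.51 when arrays were scaled over all miRNAs, 3.21 in the authors' table, 2.50 without scaling and 2.34 after quantile normalization, and that of miR-126* was 2.20 to 3.25. With normexp miR-126* was 0.50 (limma, adjusted p = 0.0126). All of these were called. Against other organs on the same slide, heart was higher on 3 of 3 slides for both strands, by less: 0.63 to 0.92 for miR-126 and 0.57 to 0.87 for miR-126*. Both miRNAs of cardiac muscle, miR-499 and miR-208 (on the array in 2 versions, both higher), were higher in heart, with sums of 757 to 989 in atrium and 687 to 936 in septum, while leukocyte miRNAs were lower for 3 of 4 and higher for 1, red blood cell miRNAs lower for 2 of 3 and smooth muscle miRNAs called for 0 of 3. Their part in the result was not tested.

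Aorta and vein were compared with each other because both are dissected vessels, of which the aorta has a far thicker muscular wall. Vein held 1659, 1965 and 1524 of miR-126 and aorta 311, 347 and 140, so every vein array was above every aorta array. This was a 6.89-fold difference, or -2.78 ± 0.29 on the log2 scale for aorta minus vein (limma, adjusted p = 1.01e-14). For miR-126*, vein held 105, 74.8 and 85.6 and aorta 20.4, 15.2 and the floor, a difference of -2.55 ± 0.43 (limma, adjusted p = 3.27e-07) with the strand detected on 2 of 3 aorta arrays. Only 21.7% of the miRNAs tested were called here, 5 higher and 70 lower in aorta. Aorta and vein of each rat shared a slide, and within those 3 slides the difference ran from -3.44 to -2.41 for miR-126. Under the other scalings it was smaller (-1.65 to -2.36, and -1.54 to -2.36 for miR-126*) and still called. With a floor 4 times as high, which lies above the signals of miR-126* in aorta, its difference was -1.01 (limma, adjusted p = 0.000358), so its size depends on the floor. The call for miR-126* was lost in the normexp alternative (-0.69, limma adjusted p = 0.383).

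Other cell markers moved with this difference. Of the smooth muscle miRNAs 0 of 3 were called, with miR-143, the abundant member, at a log2 difference of 0.35 ± 0.33, and their summed signal was 10810 to 16350 in aorta and 7353 to 14880 in vein. Leukocyte miRNAs were lower in aorta for 3 of 4, with sums of 89.6 to 129 against 304 to 824, and miR-142-5p was not detected on any aorta array. miR-451 of red blood cells was lower by 2.93 ± 0.77 log2 units (limma, adjusted p = 0.00156), with miR-144 and miR-144* not detected in either vessel. The part of these cells in the miR-126 difference was not tested. Of the 17 other miRNAs known from endothelial cells, 7 were lower in aorta, 1 was higher (miR-222, 0.91 ± 0.27) and 9 were not past the threshold, with a median of -0.13 against 0 over all miRNAs. Of all miRNAs tested 21.7% were called in this contrast. Largest among the 7 were miR-92a (-2.5 ± 0.22), miR-19b (-2.02 ± 0.2) and miR-20a (-1.99 ± 0.21), products of the miR-17-92 cluster, and miR-10b (-1.93 ± 0.3). The named cluster products had their highest organ mean in thymus. The rest of the 7 were miR-23a (-0.78), miR-17-5p (-0.67) and miR-27a (-0.6). Among those not past the threshold were miR-23b (0.11), miR-24 (0.04) and miR-27b (0.12), which are bright in both vessels.

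The vessels together were not set apart from the rest by the main scaling. Their geometric mean was 650 for miR-126, against 654 over the other 53 organs, a log2 difference of -0.01 ± 0.15 (limma, adjusted p = 0.956), and for miR-126* it was -0.18 ± 0.22 (limma, adjusted p = 0.439). Of all miRNAs 83.8% were called here, 37 higher and 252 lower. This result turned with the scaling: the difference of miR-126 was 1.56 when arrays were scaled over all miRNAs, 1.34 in the authors' table, 1.16 without scaling and 0.51 after quantile normalization, and each of these was called. For miR-126* it was 0.79 to 1.22 with these scalings, each called, and -0.47 and called with normexp (limma, adjusted p = 0.0165). Without rat 6 the miR-126 difference was 0.2 and not called (limma, adjusted p = 0.255). The median over all miRNAs was -0.41 with the main scaling and between -0.13 and -0.05 with the others. Relative to that median, miR-126 was 0.41 higher in the vessels with the main scaling and 0.6 to 1.61 higher with the others. Against other organs on the same slide the vessels were lower on 3 of 3 slides with the main scaling, at -2.06 to -0.54 (mean -1.25) for miR-126 and -1.75 to -0.44 (mean -1.1) for miR-126*. Those slide mates are a few organs and not the other 53, so these values do not show that vessels are low among all organs. Of the smooth muscle miRNAs 2 of 3 were higher in vessels, miR-143 by 2.96 ± 0.17 and miR-145 by 3.04 ± 0.21 log2 units, while 4 of 4 leukocyte miRNAs and 2 of 3 red blood cell miRNAs were lower, and their part in the result was not tested. The aorta ranked 52 with the main scaling and 21 to 35 with the others, so its place among all organs depended on the scaling.

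In the central nervous system, where capillaries form the blood-brain barrier, 8 regions were compared with the other 47 organs. miR-126 was lower, at a log2 difference of -0.29 ± 0.08 (limma, adjusted p = 0.000408), with region means from 321 in cerebellum to 743 in medulla oblongata. miR-126* was lower as well, at -0.52 ± 0.12 (limma, adjusted p = 1.84e-05). For miR-126, 25 of the other 47 organs lay above the mean of the regions, and 4 of the 8 regions lay above the median organ. The regions were thus near the middle of the organs, although below their mean. For miR-126* these counts were 29 of 47 and 3 of 8. As many as 97.1% of all miRNAs were called in this contrast, 140 higher and 195 lower. With slide as a fixed block neither call remained (-0.09, adjusted p = 0.707, and -0.18, adjusted p = 0.427, limma), and without scaling the difference of miR-126 turned to 0.33 (limma, adjusted p = 0.0227) and that of miR-126* was 0.00. With the other scalings both were larger decreases and called: for miR-126 -1.24 over all miRNAs, -1.09 in the authors' table and -0.54 after quantile normalization, and for miR-126* -1.43, -1.27 and -1.26. The size of this difference depended on the scaling. Within slides miR-126 was lower on 4 of 6 (-0.67 to 0.05) and miR-126* on 3 of 6 (-0.75 to 0.12). Cervical, lumbar and pectoral spinal cord and medulla oblongata (654 to 743) lay above cerebral cortex (546), thalamus (491), hippocampus (462) and cerebellum, with overlapping neighbours throughout. Markers of other cells moved as well. Both neuronal miRNAs were higher (summed signal 1234 to 16470 against 0 to 12290 in the other organs), while 2 of 3 smooth muscle miRNAs (202 to 1644 against 0 to 29830), 3 of 3 of red blood cells (0 to 848.5 against 0 to 35530) and 3 of 4 of leukocytes (169.9 to 912 against 89.6 to 41440) were lower and miR-150 of leukocytes was higher. Their part in the result was not tested.

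The 6 samples of scraped intestinal mucosa, duodenum to rectum, held less of both strands than the mean of the other organs. These values are of the scraped tissue and not of the whole intestine. Their geometric mean of miR-126 was 243 against 738 over the other 49 organs, 3.03-fold lower or -1.6 ± 0.09 on the log2 scale (limma, adjusted p = 1.15e-34). For miR-126* the difference was -1.06 ± 0.13 (limma, adjusted p = 1.22e-12). Its size depends on the floor, since the strand was detected on 1 of 3 arrays in each of duodenum, jejunum, ileum and rectum, and with a floor 4 times as high it was -0.47 (limma, adjusted p = 4.28e-09). In this contrast 91% of all miRNAs were called, 117 higher and 197 lower. Cecum was the highest of the 6 with 675, 554 and 529, followed by colon (389.5), jejunum (350), duodenum (290), ileum (212) and rectum (54.9). Of the 3 epithelial miRNAs of the gut (miR-192, miR-194 and miR-215) all were higher, with summed signals of 4780 to 113000 on the 18 mucosal arrays and 0 to 6474 on the other 147. Of the leukocyte miRNAs 3 of 4 were higher (median sum 2139 against 448), with miR-142-3p at 2.73 ± 0.12 log2 units (limma, adjusted p = 2.54e-42), and miR-150 was lower. All 3 red blood cell miRNAs were lower (sums of 0 to 47.3 against 0 to 35530) and 0 of 3 smooth muscle miRNAs were called (median sum 2089 against 1483). The part of these cells in the low miR-126 level was not tested. Against other organs on the same slide miR-126 was lower on 4 of 5 slides (-3.36 to 0.3). With the other scalings the difference of miR-126 was -2.09 to -1.94. With normexp the miR-126* difference was 0.01 (limma, adjusted p = 0.906).

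Bone marrow was compared because blood progenitors can hold miR-126. Its arrays held 1261, 1263 and 1744 of miR-126, and the geometric mean was 2.18-fold that of the other 54 organs, a log2 difference of 1.13 ± 0.21 (limma, adjusted p = 5.79e-07). miR-126* held 52.8, 28.6 and 54.1, was detected on 2 of 3 arrays, and its difference of 0.09 ± 0.3 did not pass the threshold (limma, adjusted p = 0.78). The call of miR-126* depended on the processing: with normexp it was 0.67 and called (limma, adjusted p = 0.0141), without scaling it was -1.32 and called (limma, adjusted p = 0.00242), and with the other 3 scalings it was -0.32 to -0.17 and not called. Of all miRNAs, 78.6% were called here, 103 higher and 168 lower. Without scaling the difference of miR-126 was -0.25 (limma, adjusted p = 0.533). Before scaling, the 75th percentile of the bone marrow arrays had a geometric mean of 658.7, at rank 6 from the lowest of the 55 organs. The cause of this shift was not tested. All 3 red blood cell miRNAs and all 4 leukocyte miRNAs were higher in bone marrow, with sums of 21310 to 35530 and 17740 to 26960. Of the smooth muscle miRNAs 1 of 3 was lower (573 to 1174), and the part of these cells in the result was not tested. Against the other organs of its slide, miR-126 was higher on 2 of 3 slides (-0.06 to 0.52) and miR-126* lower on 3 of 3 (-0.73 to -0.49). Without rat 6 the miR-126* difference was -0.12.

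Brown adipose tissue, which is densely supplied with capillaries, was compared with white adipose tissue. miR-126 was 1.74-fold higher in brown, with no overlap between 3233 to 3626 and 1837 to 2113 (log2 difference 0.8 ± 0.29, limma, adjusted p = 0.029). For miR-126* the difference was 0.74 ± 0.43 and not past the threshold (limma, adjusted p = 0.262). With slide as a fixed block it was 0.90 ± 0.27 and called (limma, adjusted p = 0.00567), and within the 2 slides that held both tissues it was 0.86 and 0.97. With slide as a random block it was 0.83 ± 0.36 and not called (limma, adjusted p = 0.0756). It was also called with a floor 4 times as high (limma, adjusted p = 0.014). The share called was 23.5% of all miRNAs, 59 higher and 22 lower. The call of miR-126 was not stable: it was lost without any 1 of the 3 rats (limma, adjusted p between 0.0801 and 0.174), with no filter on dim probes (limma, adjusted p = 0.0611), and in the authors' table (0.33, limma, adjusted p = 0.593). It was also lost when arrays were scaled over all miRNAs (0.34, limma, adjusted p = 0.657) and after quantile normalization (0.51, limma, adjusted p = 0.178). The brightest probe sequence alone gave 0.61, not called either (limma, adjusted p = 0.121). Without scaling the miR-126 difference turned to -0.28. Leukocyte miRNAs were higher in brown for 3 of 4 (1047 to 1266 against 580 to 681), smooth muscle miRNAs lower for 2 of 3 (2722 to 3018 against 6430 to 6948) and red blood cell miRNAs higher for 1 of 3 (574 to 623 against 244 to 251), and their part was not tested.

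Soleus, a slow muscle with many capillaries per fiber, was compared with gastrocnemial muscle. miR-126 held 1506, 1284 and 1171 in soleus and 1861, 1395 and 1474 in gastrocnemial muscle, and the ranges overlapped. The log2 differences were -0.25 ± 0.29 for miR-126 and -0.27 ± 0.43 for miR-126* (limma, adjusted p = 1 for each), and 10.1% of all miRNAs were called. Within the 3 slides that held both muscles, soleus was lower on 3 of 3 with the main scaling. There the differences were -0.33 to -0.12 for miR-126 and -0.39 to -0.14 for miR-126*. The sign of the difference between the muscles changed with the scaling for both strands, so no direction is given.

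The 17 other endothelial miRNAs were counted in the same contrasts, and no test compared them with miR-126. In lung 7 were higher and 3 lower (median 0.18, against -0.27 over all miRNAs), and in bone marrow 11 were higher and 4 lower (median 0.79 against -0.17). In the central nervous system 3 were higher and 14 lower (median -1.14 against -0.15). In these contrasts the sign of the list's median was that of the miR-126 difference. In heart 7 were higher and 10 lower (median -0.81 against -0.41), and in intestinal mucosa 10 were higher and 3 lower (median 0.42 against -0.16), so the sign of the median was opposite to that of miR-126. Vessels had 8 higher and 7 lower (median -0.03 against -0.41). Brown against white adipose tissue had 6 higher and 6 lower (median 0.21 against 0), where 23.5% of all miRNAs were called. Soleus against gastrocnemial muscle had 1 higher and 0 lower (median -0.03 against 0), where 10.1% were called. The share of all miRNAs called was 75.4% in lung, 78.6% in bone marrow, 97.1% in the central nervous system, 86.4% in heart, 91% in intestinal mucosa and 83.8% in vessels, so a call was common among all miRNAs. Most of these miRNAs are not restricted to endothelium. Over the 55 organ means the Pearson correlation of the list's members with miR-126 ran from -0.23 (miR-18a) to 0.389 (miR-130a). These and the next correlations are descriptions over organs that share arrays and a scaling, without a test.

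Among 143 other miRNAs detected on at least 50% of the perfused arrays, the other strand was by far the most like each member. miR-126 and miR-126* had a Pearson correlation of 0.942 and a Spearman correlation of 0.937 over 55 organ means of log2 signal. Next to miR-126 came miR-322 (0.737), miR-497 (0.618), miR-195 (0.613), miR-150 (0.574) and miR-451 (0.552). For miR-126* they were miR-322 (0.74), miR-150 (0.557), miR-497 (0.549), miR-22 (0.541) and miR-195 (0.524). At the other end stood miR-141 (-0.583), miR-200a (-0.556) and miR-429 (-0.555), miRNAs of epithelial cells, for miR-126, named here after their values had been seen.

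The sequences of miR-322, miR-195 and miR-497 (RefSeq, GRCr8, 5p strands, seed in capitals) show that these 3 of the 5 miRNAs most like miR-126 have 1 seed in common.
miR-322: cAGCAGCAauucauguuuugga
miR-195: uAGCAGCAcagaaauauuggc
miR-497: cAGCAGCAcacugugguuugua
miR-195 and miR-497 lie close together on chromosome 10 (chr10:55450509-55450529 and chr10:55450172-55450193) and miR-322 on chromosome X (chrX:137726198-137726219). Of the 5 mature miRNAs with this seed in the table, the other two did not follow miR-126: the Pearson correlation was 0.0213 for miR-16 and -0.16 for miR-15b. They were looked up after the values of the first 3 had been seen. Neither strand of miR-126 has this seed.

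The strand difference, log2 miR-126 minus log2 miR-126*, was used to ask whether the strands keep a fixed proportion. Its size depends on the probes, and only its change between samples can be read. A scaling of the array cancels in it. Over the 36 organs with both strands detected on all 3 arrays, organ means ran from 3.68 in mesenteric lymph node to 4.36 in medulla oblongata, with an SD of 0.184. There the correlation of the strands over organs was 0.982 (Spearman 0.969), and the slope of log2 miR-126* on log2 miR-126 was 0.95.

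**Figure D3:**
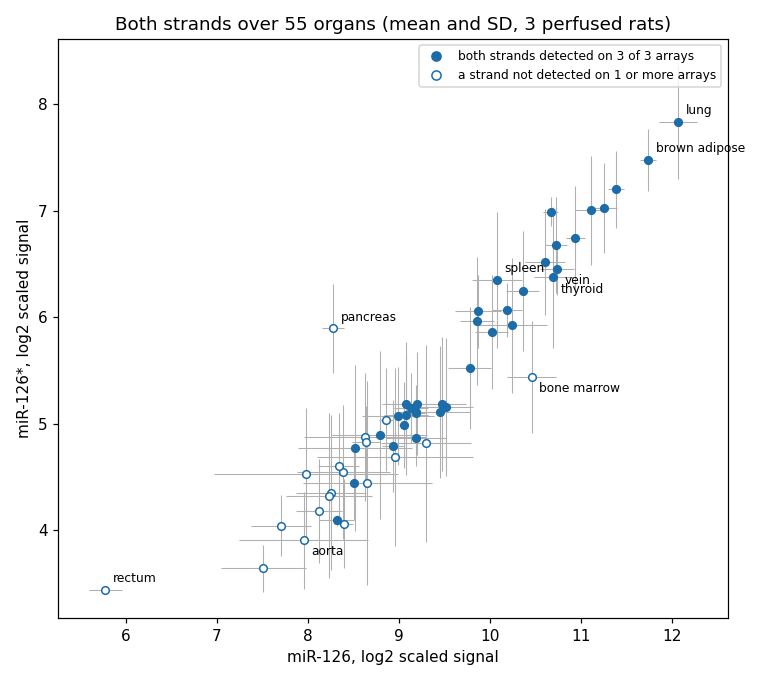
Mean log2 signal of miR-126* against that of miR-126 in 55 organs, with SD bars over 3 perfused rats. Filled points are the 36 organs with both strands detected on all arrays, and bone marrow lies to the right of the band (strand difference 5.02) while pancreas and rectum, where miR-126* is at or near background, lie to its left.

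Of the 20 strand pairs on the array with at least 10 such organs, that of miR-126 had the second smallest SD of organ means, after miR-140 (0.174), against a median of 0.493. For 3 of these pairs the correlation of the strands was higher than for miR-126. This comparison is a description, since the pairs were measured in different numbers of organs. 

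Most of the change between rats of an organ in this strand difference went with the slide. Fitting slide beside organ took up 97.6% of the sum of squares within organs, the highest share of the 20 pairs (lowest 33.1%), and lowered the SD within organs from 0.337 to 0.0621. On 10 slides the mean was between 3.65 and 3.93, and on the other 13 between 4.06 and 4.62, with a median SD of 0.1 within a slide. In lung, for example, rats 4, 5 and 6 had 4.36, 4.49 and 3.86, and in liver, kidney and both parts of the heart rat 6 was lowest too, on the same slide. Spleen showed the same split with 3.49, 3.52 and 4.17, in another order of rats. The cause of the difference between slides was not tested.

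**Figure D4:**
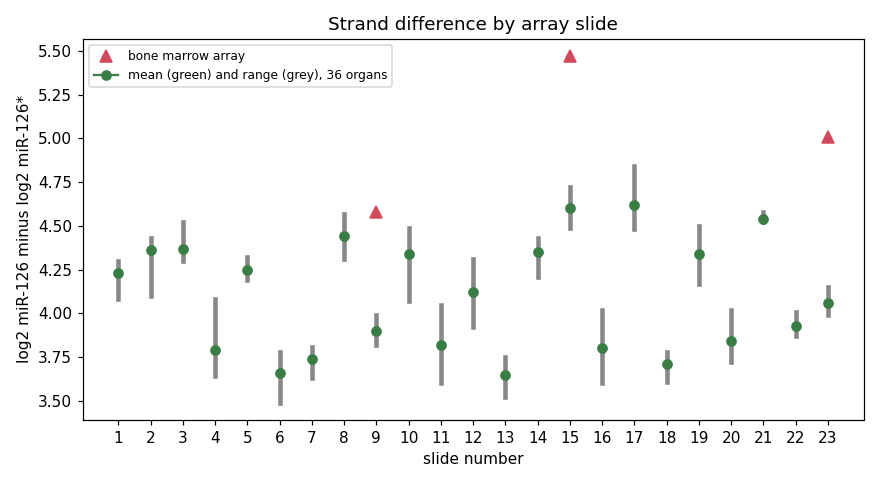
Strand difference (log2 miR-126 minus log2 miR-126*) on each of 23 slides, with the mean and range over arrays of the 36 organs with both strands detected, and the bone marrow arrays as triangles. Slide means run from 3.65 to 4.62, and each bone marrow array lies above every other array drawn for its slide.

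Since slides differ so much, organs were also read against the other arrays of their slide. Bone marrow stood out: its strand difference was 4.58, 5.47 and 5.01 in rats 4, 5 and 6, which was 0.68, 0.87 and 0.95 above the slide mean of the organs with both strands detected. miR-126* was below detection on the array of rat 5. In the limma fit over 53 strand pairs the difference of bone marrow from the other organs was 1.03 ± 0.19 (adjusted p = 1.3e-06), a 2.05-fold shift towards miR-126. It was 1.05 with slide as a fixed block (adjusted p = 1.12e-08) and 0.80 on arrays with both strands detected (adjusted p = 0.00128). Of the 53 pairs 77.4% were called in this contrast, 15 higher and 26 lower. With normexp the difference was 0.28 and not called (limma, adjusted p = 0.215).

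Among the 36 organs, thyroid lay highest above its slide mates, by 0.39, 0.3 and 0.33, and spleen lowest, by -0.22, -0.18 and -0.23, followed by cervical lymph node (mean -0.19) and mesenteric lymph node (-0.17). Each of these kept its sign on 3 of 3 slides. Organ means relative to the slide had an SD of 0.113. Thyroid, spleen and lymph nodes were picked after their values had been seen and were not tested alone.

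Over all 55 organs the strand difference varied by the limma F-test (68.8% of variance between organs, adjusted p = 7.33e-12), as did 98.1% of the pairs. This test includes organs with miR-126* at or near background, of which rectum (2.33) and pancreas (2.38) had the lowest means. Over the 36 organs with both strands detected on all arrays, organ means had an SD of 0.184, against 0.337 within organs. By itself the F-test therefore does not show a change among those 36 organs. The contrasts of lung (0.23 ± 0.19, adjusted p = 0.289), heart (0.21 ± 0.14, adjusted p = 0.18) and vessels (0.17 ± 0.14, adjusted p = 0.278) were not past limma's threshold, where 58.5%, 60.4% and 69.8% of pairs were called. These depended on the processing. The lung contrast was called after quantile normalization (0.62), with a floor 4 times as high (0.75), with normexp (1.64) and with the arrays without perfusion added (0.30), at limma adjusted p of 0.00222, 0.00257, 2.48e-11 and 0.0337. The heart contrast was called with the higher floor (0.73), normexp (1.30), the added arrays (0.27) and without rat 6 (0.41, limma, adjusted p = 0.0131), and it turned to -0.34, called, after quantile normalization (limma, adjusted p = 0.0158). The vessel contrast turned to -0.50, called, after quantile normalization (limma, adjusted p = 0.000609), and was -0.10 with the higher floor, -0.15 within slides and -0.04 without rat 5. The central nervous system was higher by 0.23 ± 0.07 (limma, adjusted p = 0.00228, 92.5% of pairs called), yet not with slide as a fixed block (0.09, limma, adjusted p = 0.523), not with the higher floor (0.11, limma, adjusted p = 0.241) and not without rat 4 (0.17, limma, adjusted p = 0.122), and it was -0.01 within slides and 0.72 after quantile normalization. Intestinal mucosa was lower, at -0.54 ± 0.08 (limma, adjusted p = 3.09e-09, 84.9% of pairs called) and lower on 5 of 5 slides (-1.19 to -0.27). Its size also depended on the processing, at -1.14 with the higher floor and -1.20 with normexp (both called). In rectum, however, miR-126* was at the floor on all arrays, so the difference there (2.53, 2.3 and 2.17) is a lower bound. In each of duodenum, jejunum, ileum and rectum miR-126* was detected on 1 of 3 arrays, so the call rests partly on signals near the floor. Of the 6 mucosal samples cecum and colon had both strands detected on all arrays, at 4.07 and 3.75. Relative to the slide mean, cecum lay at 0.1, 0.01 and 0.11 in rats 4, 5 and 6, and colon at 0.09, -0.29 and -0.15.

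Perfusion with saline was compared in 5 organs to ask whether blood contributed to the signals. miR-126 in lung was 4276 ± 144 without and 4330 ± 629 with perfusion (SD, n = 3), and in liver 1649 ± 143 and 1704 ± 140. In kidney it was 1207 ± 76.1 without and 1170 ± 140. In heart atrium it was 2506 ± 594 and 2681 ± 159, and in heart interventricular septum 2385 ± 516 and 2452 ± 235. The ranges overlapped in each organ.

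The log2 differences, with perfusion minus without, were 0.13 in atrium, 0.06 in septum, 0.05 in liver, 0.01 in lung and -0.05 in kidney, each with an SE of 0.16 and a limma adjusted p of 1. The 95% intervals for these differences allowed folds from 0.772 to 1.37. Averaged over the 5 organs of each rat the difference was 0.04 (95% interval -0.19 to 0.27, limma, adjusted p = 1). miR-126* differed by 0.27, 0.17, 0.12, 0.16 and 0.13 in the same order, each with an SE of 0.25 and an adjusted p of 1, and by 0.17 on average (95% interval -0.32 to 0.66). The intervals for single organs allowed folds from 0.754 to 1.73.

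Exact two-sided permutation tests gave p between 0.6 and 0.9 for the 10 comparisons (0.9 after Benjamini-Hochberg adjustment over the 10), where 3 against 3 rats cannot go below 0.1. In each organ 0% of the 191 miRNAs tested by limma were called, while 3 to 12 had an unadjusted p under 0.05. No variation of the difference between organs passed the threshold (limma interaction with rat as a random block, adjusted p = 1 for each strand, with 0% called and 8 at an unadjusted p under 0.05). Over the rat means 0% were called and 4 had an unadjusted p under 0.05.

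**Figure D5:**
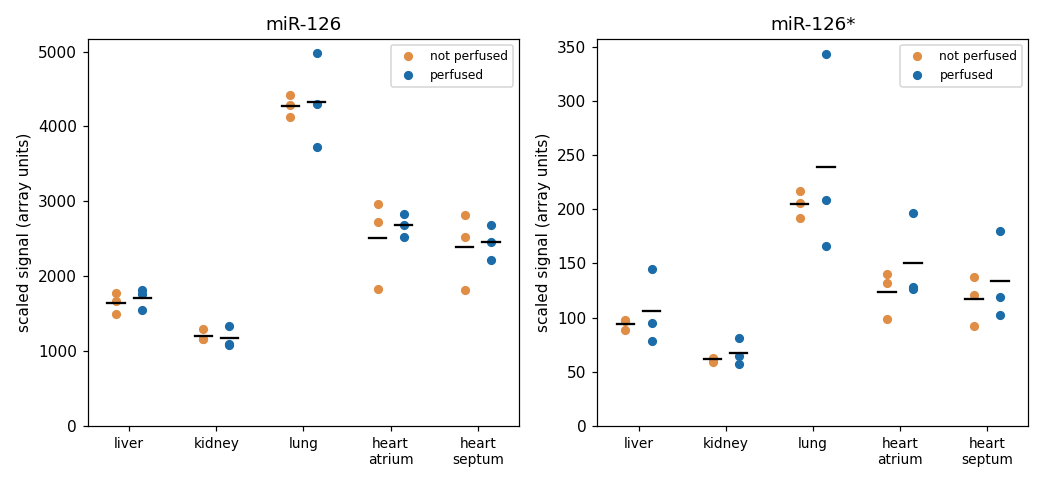
Scaled signal (array units) of miR-126 on the left and miR-126* on the right in 5 organs of rats without perfusion (orange) and with saline perfusion (blue), a point per rat and a bar at the mean. The points of both conditions overlap in every organ for both strands.

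miR-451, a miRNA of red blood cells, was lower in perfused organs by its ranges in 4 of 5. Without perfusion it ranged from 131.6 to 227 in kidney and with perfusion from the floor to 15.4, and the ranges did not overlap in liver, atrium or septum either (exact permutation p = 0.1 each, the smallest possible). In lung it ranged from 17.5 to 1080 after perfusion and from 405.3 to 558.5 without. Its limma adjusted p was between 0.149 and 0.944, so no organ passed the threshold. Of the 17 other endothelial miRNAs 0 were called in any of the 5 organs. Perfused and other arrays lay on different slides except for slide 3, so for most arrays condition and slide cannot be told apart. With slide as a fixed block the differences of miR-126 were below 0 in all 5 organs, at -0.49 in kidney, -0.39 in liver, -0.35 in lung, -0.24 in atrium and -0.21 in septum, none called. Those of miR-126* also turned below 0 in all 5 organs with this block, at -0.47 to -0.26, none called.

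The strand difference overlapped between the conditions in every organ. Its means without and with perfusion were 4.38 and 4.24 in lung, 4.33 and 4.19 in atrium, 4.35 and 4.23 in septum, 4.12 and 4.05 in liver, and 4.3 and 4.12 in kidney. Exact two-sided permutation p lay between 0.6 and 1 (1 after adjustment over 5 organs). All 5 means were lower with perfusion, whereas without rat 6, whose 5 organs lay on 1 slide, the differences of perfused minus not perfused were 0.01 to 0.15.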

How the data were processed

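Total RNA of each organ was labelled with Cy3 and hybridised to a custom 1-color Agilent miRNA array. Per the labels, 1 scanner file was deposited for each sample, whose spot intensity values (processed signals) were made with Agilent Feature Extraction 10.7.3 per the submitters' processing notes, and a value table of intensity values that the authors had scaled by array in Expressionist (Genedata) with its central tendency method, to the 75th percentile of a median that their methods tie to a dynamic target value. Outlier spots were left out (1.63% to 6.42% per array), spots of a probe sequence were averaged and probe sequences of a miRNA were averaged. Arrays were scaled by the 75th percentile of the 37 miRNAs that every array detected, floored at 10.8 and taken to log2. limma 3.58.1 in R 4.3.3 was fitted over 345 miRNAs that passed detection in 3 of 3 arrays of some organ (191 for perfusion, 53 of 259 strand pairs for the strand difference), with Benjamini-Hochberg adjustment and a threshold of 0.05. The scripts were tested on simulated data. Figures were drawn with matplotlib 3.10.9.

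Groups came from the sample labels. For 8 arrays the labels held 2 rat numbers, of which the title's was used. Arrays of a rat are from the same animal, and the residuals of arrays of the same rat had a mean correlation of 0.0496, against -0.0246 between rats. The members, marker lists and contrasts were chosen with earlier results of these data known. The p-values of the contrasts therefore do not test expectations set before the data were seen. Named miRNAs were both strands, the 5 most correlated with each, the marker and endothelial lists, and miR-451. Outside this rule, miR-141, miR-200a, miR-429, miR-16, miR-15b and miR-140 were named after their values had been seen, and miR-3567 for its place opposite the hairpin. The number of arrays limits the precision, and their depth has no counterpart of read counts. Alternatives covered scaling, floor, background correction, probe summary, filters, blocks and left-out arrays. The normexp alternative used median spot signals and an offset of 50, so its values cannot be put down to background correction alone.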

Additional observations from a re-analysis of the deposited data

How the results depend on the processing

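Of 928 values under alternatives, 904 came with a test, and 800 of these kept their direction and their side of the threshold. Of the values within slides, which have no test, 21 kept their sign and 3 changed it. Of those with a test, 12 passed the threshold newly with their sign kept and 11 with it changed, and 16 no longer passed it with their sign kept and 3 with it changed. Lung and heart levels of both strands kept their direction under every alternative run and their call under every one with a test, though not their size, and so did aorta against vein for miR-126. In another 62 tested values the sign changed and the side of the threshold was kept. Depth here is signal over background, which limits miR-126* in organs with few detected arrays.

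Scaling over all miRNAs gave, for miR-126, 1.56 in vessels, 0.34 in brown against white adipose tissue and 0.27 in soleus against gastrocnemial muscle, and for miR-126* 1.22 in vessels, -0.32 in bone marrow and 0.25 in soleus. Without scaling miR-126 had 1.16 in vessels, 0.33 in the central nervous system, -0.25 in bone marrow, -0.28 in adipose tissue, 0.56 in soleus and -0.07 for perfusion in liver, and miR-126* had 0.79, 0.00, -1.32 (called), -0.34 and 0.53 in the first 5. Quantile normalization gave 0.51 in vessels, 0.51 in adipose tissue and 0.00 in soleus for miR-126, 1.01 in vessels, -0.17 in bone marrow and 0.14 in soleus for miR-126*, and for the strand difference 0.62 in lung, -0.34 in heart and -0.50 in vessels (all called), and 0.01 and 0.07 for perfusion in liver and septum. The authors' table gave 1.34 in vessels, 0.33 in adipose tissue, 0.10 in soleus and 0.10 for perfusion in kidney for miR-126, and 1.07 in vessels, -0.20 in bone marrow and 0.08 in soleus for miR-126*. All levels in vessels under these 4 scalings were called, and none of those of miR-126 in brown against white adipose tissue was. The cause of these shifts was not tested.

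A floor 4 times as high gave miR-126* 0.10 in vessels, -0.22 in bone marrow and 0.74 in adipose tissue (now called), and the strand difference 0.75 in lung and 0.73 in heart (both called), -0.10 in vessels and 0.11 in the central nervous system. Normexp gave miR-126* -0.47 in vessels and 0.67 in bone marrow (both called), 0.01 in intestinal mucosa, -0.69 in aorta against vein, and -0.68 and -0.02 for perfusion in kidney and over 5 organs, miR-126 0.00 for perfusion in lung, and the strand difference 1.64 in lung and 1.30 in heart (both called), 0.28 in bone marrow and 0.61 for perfusion in kidney. The brightest probe sequence alone gave miR-126 0.61 in adipose tissue, no longer called, and -0.02 and 0.00 for perfusion in liver and lung. No filter gave 0.80 in adipose tissue, no longer called. Without the 8 arrays with 2 rat numbers miR-126 in vessels was 0.01. With the arrays without perfusion added, the strand difference was 0.30 in lung and 0.27 in heart, both called. Leaving out the pancreas arrays, chosen after seeing the data, changed no call. Scaling without the 2 members changed nothing by construction, since neither was among the 37.

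With slide as a fixed block miR-126 was 0.20 in vessels and -0.09 in the central nervous system, miR-126* 0.02, -0.18 and, in adipose tissue, 0.90 (called), and the strand difference in the central nervous system 0.09. For perfusion it gave -0.39, -0.49, -0.35, -0.24 and -0.21 for miR-126 in liver, kidney, lung, atrium and septum, and -0.47, -0.46, -0.38, -0.27 and -0.26 for miR-126* in liver, kidney, lung, atrium and septum. As a random block slide gave miR-126 -0.04 in liver and -0.02 in lung. Within slides the strand difference was -0.15 in vessels and -0.01 in the central nervous system, and miR-126* in bone marrow -0.62. The rat number as a replicate block, which pairs arrays of the same animal, changed no call (lung 2.77 and 2.53, strand difference of bone marrow 1.03).

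Leaving out each rat in turn gave these ranges. For miR-126 they were 0.79 to 0.81 in adipose tissue (never called) and -0.17 to 0.20 in vessels, and for perfusion -0.02 to 0.12 in liver, -0.15 to 0.00 in kidney, -0.10 to 0.11 in lung, -0.09 to 0.26 in atrium, -0.13 to 0.19 in septum and -0.06 to 0.10 over 5 organs. For miR-126* they were -0.12 to 0.39 in bone marrow, and for perfusion -0.13 to 0.31 in liver, -0.01 to 0.24 in kidney, -0.14 to 0.39 in lung, -0.06 to 0.35 in septum and -0.06 to 0.30 over 5 organs. For the strand difference they were 0.17 to 0.30 in the central nervous system, 0.11 to 0.41 in heart and -0.04 to 0.30 in vessels, and for perfusion -0.20 to 0.15 in liver, -0.29 to 0.01 in kidney, -0.27 to 0.04 in lung, -0.28 to 0.06 in atrium and -0.22 to 0.05 in septum.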
